A study of Drosophila melanogaster with 8 samples.

Results

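The genes described here are the ecdysone receptor and its early response genes in enterocytes, the absorptive cells of the adult *Drosophila melanogaster* midgut. They were chosen by name: the receptor genes EcR and usp, the ecdysone importer gene Oatp74D, and the response genes Eip75B, Eip74EF, Eip78C, Eip93F, br, ftz-f1 and Hr39. Of these 10 genes, 9 were among the 9177 genes of the deposited count table, which holds no row for usp, so usp is not analysed here. The series asked which genes are targets of Shavenbaby (Svb), a zinc-finger transcription factor made from the ovo locus, in mature enterocytes. RNA was sequenced from patches of enterocytes from the posterior midgut, regions R3 to R5, of pooled virgin females.

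All groups carried the enterocyte driver MyoIA-Gal4 with UAS-GFP and the temperature-sensitive Gal4 inhibitor tubGal80TS, so that transgenes were off at room temperature and on at 29 °C. SvbAct flies (3 libraries) also carried UAS-SvbACT::GFP, a constitutive activator form of Svb. RNAiSvb flies (3 libraries) also carried UAS-SvbRNAi, which is meant to lower svb RNA. Ctrl flies (2 libraries) came from the driver line crossed to Canton-S and carried no svb transgene. Flies of every group were kept for 3 days at room temperature and 6 days at 29 °C and were 9 days old at dissection. One strain label places the transgenes' activation in intestinal stem cells, against the enterocyte driver named in the genotypes. The libraries of a group were made on different calendar days.

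Ecdysone is the steroid hormone that times moulting and metamorphosis in flies. It enters cells through the importer made by Oatp74D and binds the EcR protein, which works as a dimer with the protein made by usp, and the bound receptor switches on a set of early genes that are themselves transcription factors. In the adult female gut, ecdysone signalling is known from stem cell growth and from lipid uptake after mating. In the embryonic epidermis and other tissues, ecdysone controls Svb through the small peptides of the tal gene (also called pri): with the ubiquitin ligase Ubr3 they bring Svb to the proteasome, which trims the repressor into an activator. SvbACT stands in for that trimmed form.

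Total counts ran between 15450011 and 23748649 per library. The ovo locus, counted to check the labels, had 868, 1189 and 762 counts in SvbAct libraries, 40, 26 and 61 counts in libraries labelled RNAiSvb and 9 and 2 counts in Ctrl libraries. The counts labelled RNAiSvb were above both Ctrl libraries and not below them (log2 fold change 2.63, SE 0.63, adjusted p = 0.0807 by edgeR's quasi-likelihood test). The authors' deposited table called ovo upregulated in RNAiSvb against Ctrl. No lowering of ovo RNA was seen, but 9 and 2 counts in Ctrl libraries left almost no room to see one. The source of the ovo counts in libraries labelled RNAiSvb was not tested. Directions drawn from these libraries rest on their label. Enterocyte markers (8 of 8 listed in the table) summed to between 12188 and 14394 CPM (counts scaled to a common library size) in SvbAct libraries, 9354 and 10065 CPM in libraries labelled RNAiSvb and 8840 and 9561 CPM in Ctrl libraries. Of these 8 markers, 1 (nub) rose in SvbAct against Ctrl and 2 (pdm2 and bbg) were higher in SvbAct than in RNAiSvb by the same test. The largest part of each sum was mesh, which averaged 5812 CPM in SvbAct libraries, 3867 CPM in libraries labelled RNAiSvb and 3465 CPM in Ctrl libraries. Only Myo31DF averaged lower in SvbAct than in Ctrl libraries (632 against 786 CPM), and Myo61F differed little (2114 against 1993 CPM). Visceral muscle markers (9 of 9) summed to 891, 724 and 236 CPM in SvbAct libraries, 732, 253 and 1436 CPM in libraries labelled RNAiSvb and 629 and 340 CPM in Ctrl libraries. Stem cell and enteroblast markers (6 of 7, without esg) summed to between 229 and 332 CPM in SvbAct libraries, 97.1 and 115 CPM in libraries labelled RNAiSvb and 111 and 123 CPM in Ctrl libraries. By the same test, 4 of the 6 rose in SvbAct against Ctrl and 5 of the 6 were higher in SvbAct than in RNAiSvb. Enteroendocrine markers (9 of 9) summed to between 339 and 394 CPM in SvbAct libraries, 311 and 461 CPM in libraries labelled RNAiSvb and 355 and 384 CPM in Ctrl libraries. Of these, only Dh31 was called by the same test. It fell in RNAiSvb against Ctrl (log2 fold change -2.14, adjusted p = 0.00629) and was higher in SvbAct than in RNAiSvb (2.37, adjusted p = 0.00136).

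None of the 9 measured genes passed the test in any of the 3 comparisons. The test was edgeR's quasi-likelihood test over all 8775 genes that passed a filter on low counts, with a Benjamini-Hochberg adjusted p under 0.05, and all 9 genes passed the filter. Over all genes tested, the percentage called was 3.44% in SvbAct against Ctrl (1.95% higher, 1.49% lower), 1.36% in the libraries labelled RNAiSvb against Ctrl (0.262% higher, 1.09% lower) and 6.26% in SvbAct against those labelled RNAiSvb (4.05% higher, 2.21% lower). At these percentages, a set of 9 genes with no call does not stand apart from the table. At an unadjusted p under 0.05 there was 1 of the 9 in SvbAct against Ctrl (br; 17.4% of all genes), 0 in RNAiSvb against Ctrl (13.6% of all genes) and 2 in SvbAct against RNAiSvb (br and Eip78C; 23.7% of all genes). The authors' deposited table also called 0 of the 9 in each of its comparisons with Ctrl. In these bulk samples, fewer cells of a type and less RNA per cell cannot be told apart.

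The intervals show which differences the data still allow. The median log2 fold change of the 9 genes was 0.07 in SvbAct against Ctrl, -0.03 for RNAiSvb relative to Ctrl and 0.06 for SvbAct relative to RNAiSvb, beside -0.01, 0.02 and -0.02 for all genes tested. The 95% confidence interval lay wholly within 1 log2 unit of no difference for 6 of the 9 genes in SvbAct against Ctrl, 8 for RNAiSvb relative to Ctrl and 7 for SvbAct relative to RNAiSvb. The exceptions were Oatp74D in both comparisons with Ctrl, and br and Eip78C in both comparisons of SvbAct. For the other genes, the data still allow any difference inside their intervals. An interval edge is not the smallest difference that the test could call.

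**Figure D1:**
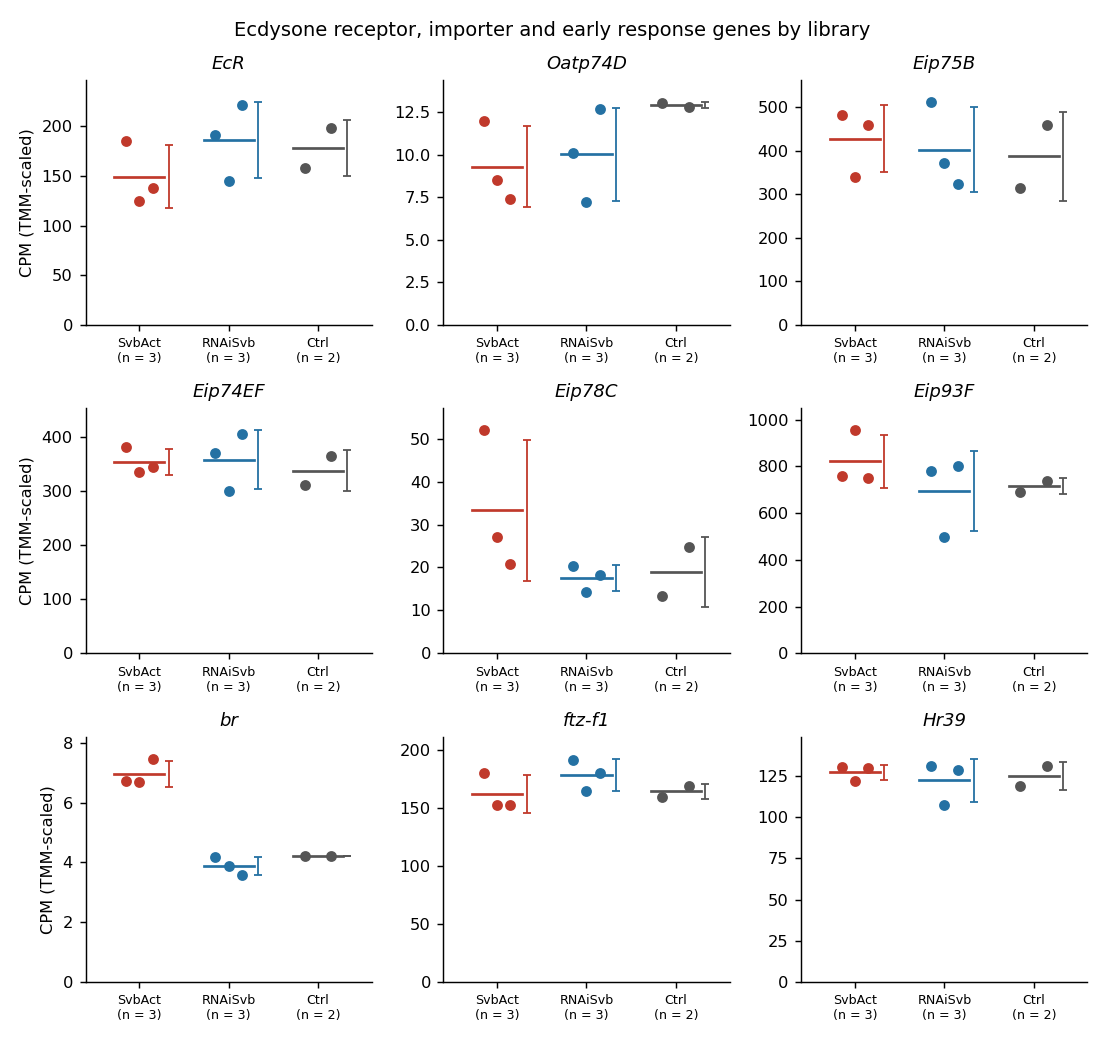
CPM of each of the 9 measured genes (vertical axes, each starting at 0) in every library of SvbAct (red, n = 3), the libraries labelled RNAiSvb (blue, n = 3) and Ctrl (grey, n = 2), with the group mean as a horizontal line and 1 SD as a bar beside the points. For br the SvbAct libraries lie above all others, between 6.68 and 7.47 CPM; for most other genes the groups overlap.

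Levels per length spread over a wide range, and the group means had the same order in all 3 groups. On the scale of CPM per kilobase of annotated exon, Eip93F was the most abundant of the 9, with 64.8 ± 9.01 in SvbAct libraries, 54.7 ± 13.4 in libraries labelled RNAiSvb and 56.3 ± 2.74 in Ctrl libraries (SD, n = 3, 3 and 2). It stood at the percentile 86.4 of 8671 genes with an annotated length, whose median level was 10.2. Averaged over groups, Eip74EF followed at 37.4, Eip75B at 30.1, Hr39 at 25.1, ftz-f1 at 19.6 and EcR at 17.2 CPM per kilobase. Eip78C at 3.97, Oatp74D at 2.59 and br at 0.249 CPM per kilobase lay below the median of all genes.

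Neighbours in that order mostly overlapped in their range over libraries. EcR lay above Eip78C in all libraries, with a lowest value of 12.6 against a highest of 8.84 CPM per kilobase. Oatp74D lay above br, with a lowest value of 1.74 against a highest of 0.370 CPM per kilobase. Eip93F exceeded Eip74EF within each of the 8 libraries although their ranges overlapped, while Eip75B exceeded Hr39 in 6 of 8 and ftz-f1 exceeded EcR in 6 of 8. With the longest annotated transcript as the length in place of all exons, ftz-f1 (27.7) stood above Hr39 (25.8) and br had 0.511 CPM per kilobase.

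**Figure D2:**
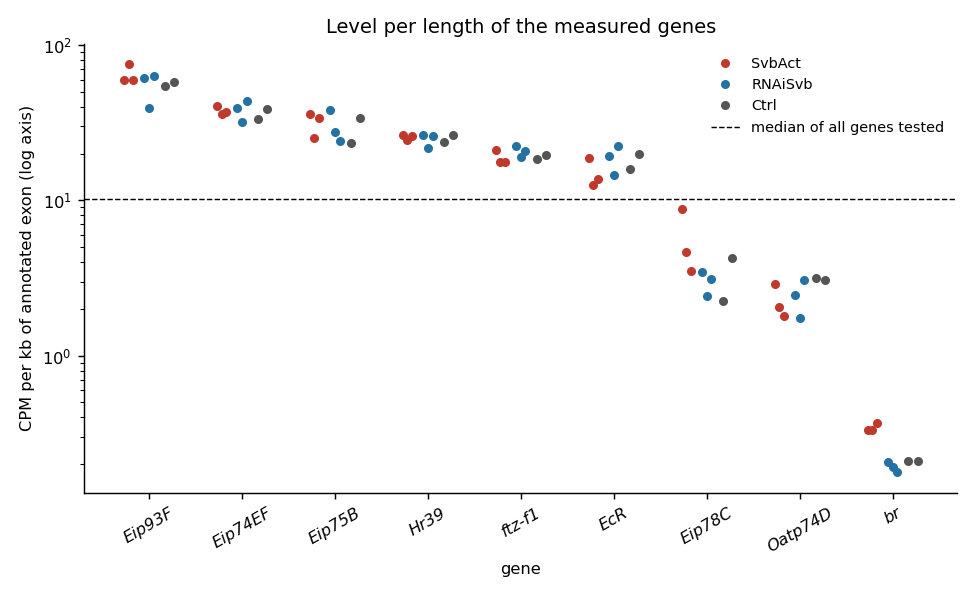
CPM per kilobase of annotated exon (log axis) of the 9 genes in every library, ordered by the mean over groups, for SvbAct (red), the libraries labelled RNAiSvb (blue) and Ctrl (grey); the dashed line is the median of all genes, 10.2. There are 6 genes above that line and 3 below it, with br lowest.

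EcR encodes the hormone receptor itself. The gene lies on chromosome arm 2R, bases 6087873 to 6169087 of the minus strand (BDGP6.54), with 6 annotated transcripts from 4 start sites, so its counts add isoforms together. EcR had 186, 125 and 137 CPM in SvbAct libraries, 191, 145 and 221 CPM in libraries labelled RNAiSvb and 158 and 198 CPM in Ctrl libraries. The 3 groups overlapped. The log2 fold change was -0.25 in SvbAct against Ctrl (95% interval -0.76 to 0.25, adjusted p = 0.621), 0.06 for RNAiSvb relative to Ctrl (-0.45 to 0.57, adjusted p = 0.937) and -0.32 in SvbAct against RNAiSvb (-0.77 to 0.14, adjusted p = 0.384).

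Oatp74D encodes the importer that carries ecdysone into cells, and lies on chromosome arm 3L, bases 17487118 to 17511693 of the plus strand. It had 12.0, 8.49 and 7.41 CPM in SvbAct libraries, 10.1, 7.22 and 12.7 CPM in libraries labelled RNAiSvb and 13.0 and 12.8 CPM in Ctrl libraries. All 6 libraries with a transgene lay below both Ctrl libraries, by a margin that was small for SvbAct replicate 1 and RNAiSvb replicate 3. On library totals alone the groups overlapped, with 12.6 CPM in SvbAct replicate 1 and 13.9 CPM in RNAiSvb replicate 3, against 12.6 and 12.0 CPM in Ctrl libraries. With the composition factors used throughout (TMM), 20.0% of all genes tested lay below both Ctrl libraries in every SvbAct library and 17.0% in every library labelled RNAiSvb. The difference did not pass the test in SvbAct against Ctrl (log2 fold change -0.48, SE 0.30, 95% interval -1.15 to 0.20, adjusted p = 0.459) or in RNAiSvb against Ctrl (-0.37, SE 0.30, 95% interval -1.04 to 0.30, adjusted p = 0.637). Both comparisons share the Ctrl libraries. SvbAct and RNAiSvb libraries overlapped, with a log2 fold change of -0.11 (adjusted p = 0.854).

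Eip75B and Eip78C encode nuclear receptors that respond early to the hormone, and Eip74EF encodes an ETS-domain transcription factor; all lie on chromosome arm 3L. Eip75B (bases 17950953 to 18064696, minus strand, 7 transcripts from 7 starts) had 482, 339 and 460 CPM in SvbAct libraries, 512, 372 and 323 CPM in libraries labelled RNAiSvb and 314 and 460 CPM in Ctrl libraries. Its groups overlapped in every comparison, with log2 fold changes of 0.14, 0.06 and 0.09 in SvbAct against Ctrl, RNAiSvb against Ctrl and SvbAct against RNAiSvb, and adjusted p values between 0.823 and 0.948. Eip74EF (bases 17558672 to 17619325, minus strand) had 380, 335 and 344 CPM in SvbAct libraries, 369, 299 and 405 CPM in libraries labelled RNAiSvb and 311 and 364 CPM in Ctrl libraries. Its groups overlapped as well. Its log2 fold changes were 0.07, 0.08 and -0.02 in the same order of comparisons, with a 95% interval of -0.33 to 0.47 for SvbAct against Ctrl.

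Eip78C (bases 21226609 to 21266503 of arm 3L, plus strand) varied most over the 8 libraries, by 3.92 times between the highest and the lowest, where the median over 8471 genes with counts in every library was 2.11 times. It had 51.9, 27.2 and 20.8 CPM in SvbAct libraries, 20.3, 14.2 and 18.2 CPM in libraries labelled RNAiSvb and 13.3 and 24.8 CPM in Ctrl libraries. SvbAct replicate 1 was far above the rest, and the lowest SvbAct library was only just above the highest of those labelled RNAiSvb. The log2 fold change was 0.81 in SvbAct against Ctrl (SE 0.40, adjusted p = 0.326) and 0.92 in SvbAct against RNAiSvb (SE 0.35, 95% interval 0.15 to 1.69, adjusted p = 0.140), neither past the test. Without SvbAct replicate 1 these values were 0.33 and 0.45. The value for SvbAct against Ctrl was 0.42 without Ctrl replicate 1 and 1.33 without Ctrl replicate 2. Against Ctrl, RNAiSvb libraries had a log2 fold change of -0.11 (95% interval -0.97 to 0.74).

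br encodes the Broad zinc-finger transcription factors, which mark the step to the pupa in metamorphosis. It lies on chromosome X, bases 1575132 to 1664869 of the plus strand, with 16 annotated transcripts from 9 start sites. It had 122, 96 and 131 counts, or 6.73, 6.68 and 7.47 CPM, in SvbAct libraries, 92, 91 and 74 counts, or 4.18, 3.89 and 3.58 CPM, in libraries labelled RNAiSvb and 79 and 70 counts, or 4.22 and 4.23 CPM, in Ctrl libraries. SvbAct libraries lay above all others. Those labelled RNAiSvb lay below both Ctrl libraries by a narrow margin, which was not there on library totals alone, where RNAiSvb replicate 1 had 4.17 CPM and the Ctrl libraries 4.07 and 3.97 CPM. Of all genes tested, 38.6% had groups that did not overlap in SvbAct against Ctrl (18.7% with SvbAct higher), 32.9% in RNAiSvb against Ctrl (17.0% with RNAiSvb lower) and 29.8% in SvbAct against RNAiSvb (14.9% with SvbAct higher), so separation alone is common in this table. Of the 9 genes, groups did not overlap for 3 in SvbAct against Ctrl (br and Eip93F higher, Oatp74D lower), 2 for RNAiSvb relative to Ctrl (br and Oatp74D lower) and 2 for SvbAct relative to RNAiSvb (br and Eip78C higher), shares below those of the table. On library totals alone, the same counts were 2 (br and Eip93F higher), 1 (ftz-f1 higher) and 2 (br and Eip78C higher). The shares of all genes above are for TMM-scaled CPM. They were not computed on library totals, so these last counts have no background to be read against.

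The br difference did not pass the test in any comparison. In SvbAct against RNAiSvb the log2 fold change was 0.84 (SE 0.27, adjusted p = 0.0917), a ratio of 1.79 with a 95% interval of 1.19 to 2.71. In SvbAct against Ctrl it was 0.72 (SE 0.31, adjusted p = 0.262), a ratio of 1.65, and in RNAiSvb against Ctrl it was -0.12 (95% interval -0.79 to 0.55, adjusted p = 0.899). DESeq2's Wald test called br in SvbAct against RNAiSvb (log2 fold change 0.86, adjusted p = 0.0345), the only call of any of the 9 genes among the alternatives run. In the same comparison DESeq2 called 1054 of the 8775 genes tested, where the main test called 549, so 1 call among 9 genes does not stand apart. Over all alternatives the adjusted p for this comparison ran between 0.0345 and 0.210. The enterocyte markers and the stem cell and enteroblast markers summed to more in SvbAct libraries too, as given above. The largest part of the enterocyte sum was mesh, and Myo31DF was lower in SvbAct than in Ctrl libraries. The part of either cell type in the br values was not tested. The exons of br share 189 bases with Mur2B on the other strand, and the strand setting of the counting is not given in the sources used here.

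Eip93F encodes a helix-turn-helix factor that directs late metamorphic and adult gene programmes, on chromosome arm 3R, bases 21949114 to 22014539 of the plus strand. It had 760, 954 and 752 CPM in SvbAct libraries, 781, 499 and 803 CPM in libraries labelled RNAiSvb and 690 and 739 CPM in Ctrl libraries. The SvbAct libraries were all above both Ctrl libraries, and RNAiSvb replicate 2 was below every other library. The log2 fold change in SvbAct against Ctrl was 0.20 (95% interval -0.31 to 0.71, adjusted p = 0.705). In RNAiSvb against Ctrl it was -0.04 (95% interval -0.55 to 0.47, adjusted p = 0.959), and in SvbAct against RNAiSvb 0.24 (95% interval -0.21 to 0.70, adjusted p = 0.507).

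ftz-f1 and Hr39 encode related orphan nuclear receptors, the first a competence factor for the later ecdysone responses. ftz-f1 (arm 3L, bases 18750607 to 18801309, minus strand) had 180, 152 and 152 CPM in SvbAct libraries, 191, 164 and 180 CPM in libraries labelled RNAiSvb and 159 and 168 CPM in Ctrl libraries. Hr39 (arm 2L, bases 21237250 to 21259675, plus strand) had 130, 122 and 130 CPM in SvbAct libraries, 131, 108 and 129 CPM in libraries labelled RNAiSvb and 119 and 131 CPM in Ctrl libraries. These varied least of the 9, with a highest library 1.22 times the lowest for Hr39 and 1.26 times for ftz-f1. The log2 fold changes of Hr39 were 0.03, -0.03 and 0.06 in SvbAct against Ctrl, RNAiSvb against Ctrl and SvbAct against RNAiSvb, and those of ftz-f1 were -0.02, 0.12 and -0.14. Their intervals were the narrowest of the set: for Hr39 in SvbAct against Ctrl it ran from -0.32 to 0.37, and for ftz-f1 from -0.37 to 0.33. ftz-f1 shares 2521 exon bases with lncRNA:CR45939 on the same strand, so the counting could split or drop reads there.

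**Figure D3:**
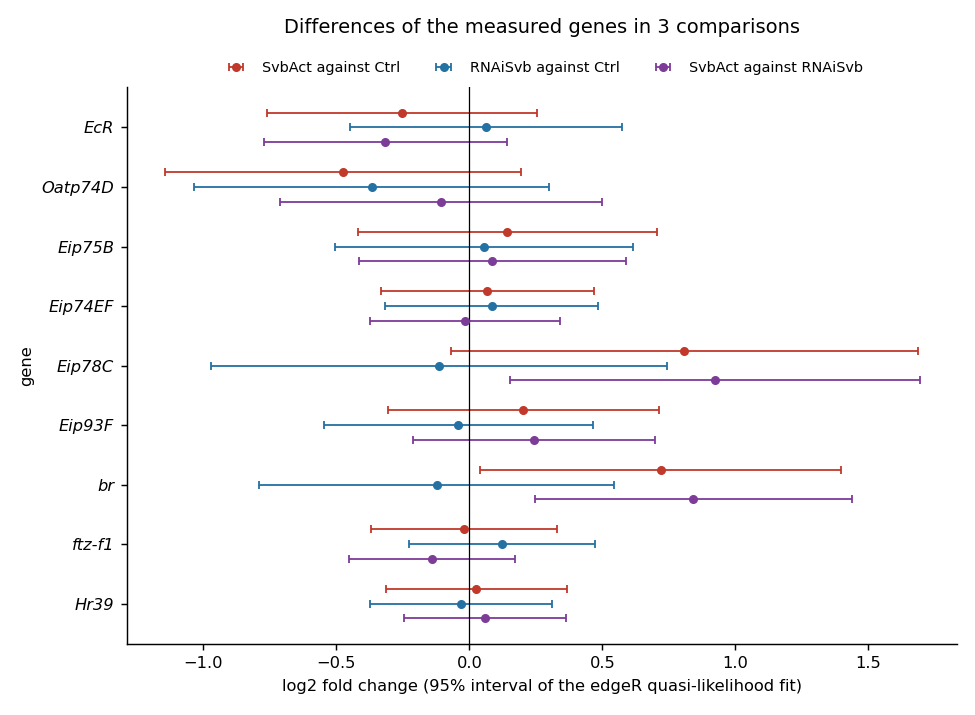
Log2 fold change (points) with its 95% confidence interval (bars) of the 9 genes in SvbAct against Ctrl (red), the libraries labelled RNAiSvb against Ctrl (blue) and SvbAct against those labelled RNAiSvb (purple); positive values are higher in the first group named. No gene passed the test in any comparison, and br and Eip78C lie farthest to the right, at 0.84 and 0.92 in SvbAct against RNAiSvb.

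The genes also varied by library within a group. SvbAct replicate 1 was the highest SvbAct library for 7 of the 9 genes, while it was the highest for 30.3% of all genes tested. Of the libraries labelled RNAiSvb, replicate 2 was the lowest for 7 of the 9 genes (36.9% of all genes), and of the Ctrl libraries, replicate 2 was the higher for 8 of the 9 (48.7% of all genes). Visceral muscle markers were also highest in SvbAct replicate 1 and lowest in RNAiSvb replicate 2 within their groups, but lower in Ctrl replicate 2 than in Ctrl replicate 1. The part of other cells in these values was not tested.

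Beyond the 9 genes, 7 lists of related genes were read from the same fit: hormone synthesis and turnover, EcR cofactors, other ecdysone-responsive genes, the link to Svb processing, other nuclear receptors, other Oatp transporters and juvenile hormone genes. Of 71 listed genes, 48 were tested, and Hr3 and Hr4 stand on 2 of the lists. Past the test were 5 in SvbAct against Ctrl (2 higher, 3 lower), 3 in RNAiSvb against Ctrl (all lower) and 4 in SvbAct against RNAiSvb (all higher). The calls in both comparisons of SvbAct include ovo, whose counts in SvbAct libraries can include the transgene. Of all genes tested, 3.44%, 1.36% and 6.26% were called in the same order of comparisons. The medians of these lists are read as descriptions only.

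**Figure D4:**
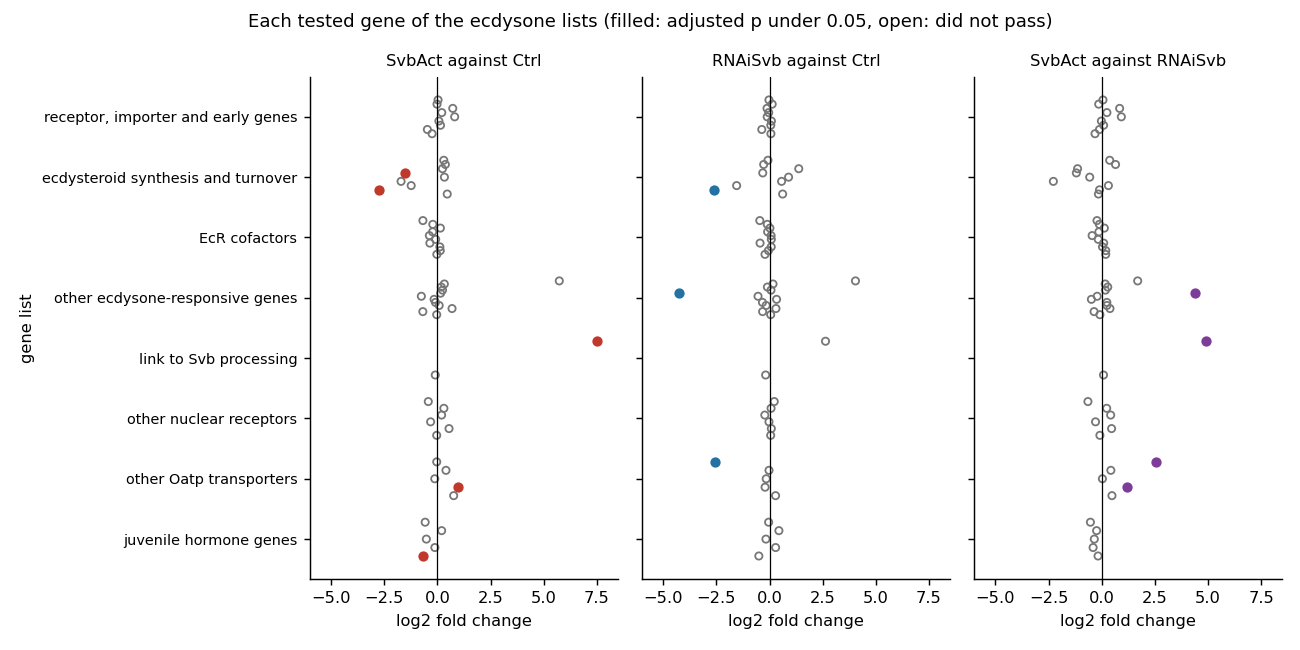
Log2 fold change (horizontal axes) of every tested gene, by gene list (rows), in the 3 comparisons (panels); filled points passed the test and open points did not. In the top row, the 9 genes described above, all points are open, while filled points lie in the synthesis, responsive, Svb-link, Oatp and juvenile hormone rows.

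Among genes of hormone synthesis and turnover (13 listed, 9 tested), 2 fell in SvbAct against Ctrl, 1 fell in RNAiSvb against Ctrl, none rose, and the direct comparison of SvbAct and RNAiSvb called none. The median log2 fold changes were 0.23, -0.08 and -0.16. spo, a Halloween cytochrome P450 of ecdysteroid synthesis, had 1.49, 1.74 and 2.74 CPM in SvbAct libraries, 1.32, 1.41 and 3.72 CPM in libraries labelled RNAiSvb and 8.82 and 17.8 CPM in Ctrl libraries. Both Ctrl libraries lay above all others, and the Ctrl libraries differed widely from each other. spo fell in SvbAct against Ctrl (log2 fold change -2.74, SE 0.53, adjusted p = 0.0208) and in RNAiSvb against Ctrl (-2.63, SE 0.52, adjusted p = 0.0378), which share those Ctrl libraries. Neither spo call held without Ctrl replicate 1 (-3.16 and -3.05), Ctrl replicate 2 (-2.15 and -2.04) or SvbAct replicate 1 (-2.56 and -2.63). The first was also lost without SvbAct replicate 2 (-2.65), and the second without RNAiSvb replicate 1 (-2.36) or RNAiSvb replicate 2 (-2.40). spo shares 308 exon bases with l(3)psg2 on the other strand.

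shd encodes the P450 that turns ecdysone into the active 20-hydroxyecdysone in peripheral tissues. It had 2.65, 1.81 and 2.51 CPM in SvbAct libraries, 5.59, 6.11 and 4.30 CPM in libraries labelled RNAiSvb and 7.49 and 5.86 CPM in Ctrl libraries. SvbAct libraries were below all others, and RNAiSvb and Ctrl libraries overlapped. shd fell in SvbAct against Ctrl (log2 fold change -1.52, SE 0.35, adjusted p = 0.0440). In SvbAct against RNAiSvb it did not pass (-1.19, adjusted p = 0.0557). The first call was lost in 10 of 16 alternatives, among them the omission of any SvbAct or Ctrl library, with log2 fold changes there between -1.69 and -1.33.

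The list of EcR cofactors (10 of 10 tested), such as the coactivator tai and the corepressor Smr, had no call in any comparison. It also holds DopEcR, which encodes a membrane receptor for dopamine and ecdysone and not a cofactor. The list's medians were -0.15, -0.08 and -0.04 in SvbAct against Ctrl, RNAiSvb against Ctrl and SvbAct against RNAiSvb. The widest log2 fold change was -0.69, for DopEcR in SvbAct against Ctrl, and among the others -0.45, for Hsp83 in SvbAct against RNAiSvb. Other nuclear receptors (15 listed, 6 tested) had no call either, with medians of 0.08, 0.06 and 0.07. Hnf4, a regulator of lipid use, averaged 406 CPM in SvbAct libraries, 345 CPM in libraries labelled RNAiSvb and 329 CPM in Ctrl libraries, with an adjusted p of 0.406 in SvbAct against Ctrl.

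Of the other ecdysone-responsive genes (18 listed, 12 tested), ImpL2 was called. It encodes a secreted protein that binds insulin-like peptides and lowers insulin signalling. ImpL2 had 5.96, 31.6 and 9.92 CPM in SvbAct libraries, 1.27, 0.513 and 0.435 CPM in libraries labelled RNAiSvb and 4.87 and 23.7 CPM in Ctrl libraries. Libraries labelled RNAiSvb were below all others, while SvbAct and Ctrl libraries spread widely and overlapped. ImpL2 fell in RNAiSvb against Ctrl (log2 fold change -4.25, SE 0.84, adjusted p = 0.0373) and was higher in SvbAct than in RNAiSvb (4.40, SE 0.81, adjusted p = 0.0118). The first call was lost without any one of the libraries labelled RNAiSvb (-4.87, -4.04 and -3.99) or without Ctrl replicate 2 (-2.71). The second was lost without RNAiSvb replicate 2 (4.19, adjusted p = 0.0616). Most of the exon length of ImpL2, 1651 of 2667 bases, is shared with CG46460 on the same strand, so its counts are uncertain.

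Of the Oatp transporters other than Oatp74D (7 listed, 5 tested), Oatp30B and Oatp58Da passed a test; both belong to the organic anion transporter family that includes the ecdysone importer. Oatp58Da had 10.6, 10.6 and 10.7 CPM in SvbAct libraries, 1.41, 2.01 and 2.08 CPM in libraries labelled RNAiSvb and 12.5 and 9.30 CPM in Ctrl libraries. SvbAct libraries lay within the range of the Ctrl libraries, and those labelled RNAiSvb were far below both. It fell in RNAiSvb against Ctrl (log2 fold change -2.57, SE 0.29, adjusted p = 0.00228) and was higher in SvbAct than in RNAiSvb (2.54, SE 0.27, adjusted p = 0.000792), in all 16 alternatives each. Malpighian tubule markers (3 of 5 in the table, without Uro and byn) summed to between 115 and 163 CPM in SvbAct libraries, 130 and 149 CPM in libraries labelled RNAiSvb and 84.6 and 135 CPM in Ctrl libraries. Most of each sum was Best1, which had 157, 134 and 112 CPM in SvbAct libraries, 116, 81.5 and 95.9 CPM in libraries labelled RNAiSvb and 69.9 and 126 CPM in Ctrl libraries. The sums therefore say little about the other markers of that list, which went opposite ways. Irk2, a potassium channel gene, had 36, 28 and 17 counts in SvbAct libraries, 3, 0 and 7 counts in libraries labelled RNAiSvb and 14 and 50 counts in Ctrl libraries, which did not pass the test for RNAiSvb relative to Ctrl (adjusted p = 0.167) or for SvbAct relative to RNAiSvb (adjusted p = 0.0751). NKCC, a chloride cotransporter gene, had 3.31, 4.94 and 2.22 CPM in SvbAct libraries, 33.2, 48.6 and 38.7 CPM in libraries labelled RNAiSvb and 13.9 and 6.34 CPM in Ctrl libraries. NKCC rose in RNAiSvb against Ctrl (log2 fold change 1.99, SE 0.40, adjusted p = 0.0381) and was lower in SvbAct than in RNAiSvb (-3.53, SE 0.37, adjusted p = 0.000662). The part of tubule cells in the Oatp58Da values was not tested.

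Oatp30B had 37.3, 49.4 and 34.7 CPM in SvbAct libraries, 20.2, 16.4 and 17.1 CPM in libraries labelled RNAiSvb and 20.3 and 21.1 CPM in Ctrl libraries. SvbAct libraries were above all others, and those labelled RNAiSvb were just below both Ctrl libraries but overlapped them on library totals alone. Oatp30B was higher in SvbAct than in RNAiSvb (log2 fold change 1.18, SE 0.19, adjusted p = 0.00640), in all 16 alternatives. Against Ctrl it rose in SvbAct (0.96, SE 0.22, adjusted p = 0.0374), a call that was lost without Ctrl replicate 1 (0.93), Ctrl replicate 2 (0.99), SvbAct replicate 1 (1.02), SvbAct replicate 2 (0.80) or RNAiSvb replicate 3 (0.96). Enterocyte markers, with mesh as the largest part, and stem cell and enteroblast markers also summed to more in the same SvbAct libraries. The part of either cell type in the Oatp30B values was not tested.

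Among juvenile hormone genes (7 listed, 5 tested), Met, which encodes a receptor for that hormone, fell in SvbAct against Ctrl. Met had 36.2, 35.6 and 32.9 CPM in SvbAct libraries, 40.3, 37.0 and 40.9 CPM in libraries labelled RNAiSvb and 60.2 and 51.8 CPM in Ctrl libraries. The log2 fold change was -0.68 (SE 0.16, adjusted p = 0.0440), and the call was lost in 10 of 16 alternatives, among them the omission of any SvbAct or Ctrl library, with values between -0.79 and -0.57. In the comparison of RNAiSvb with Ctrl Met did not pass (-0.51, adjusted p = 0.189), although those libraries also lay below both Ctrl libraries. The list's medians were -0.52, -0.05 and -0.35.

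In the link between ecdysone and Svb, Ubr3 had 216, 223 and 221 CPM in SvbAct libraries, 194, 211 and 219 CPM in libraries labelled RNAiSvb and 245 and 228 CPM in Ctrl libraries. All transgene libraries lay below both Ctrl libraries by small amounts, but not on library totals alone, where SvbAct replicate 1 had 226 CPM and RNAiSvb replicate 3 had 238 CPM, against 237 and 214 CPM in Ctrl libraries. The differences did not pass the test in SvbAct against Ctrl (log2 fold change -0.10, adjusted p = 0.769) or RNAiSvb against Ctrl (-0.19, adjusted p = 0.623). tal has no row in the table used here and is not analysed here. ovo itself rose in SvbAct against Ctrl (7.52, adjusted p = 0.000219), where its counts can include the transgene.

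**Figure D5:**
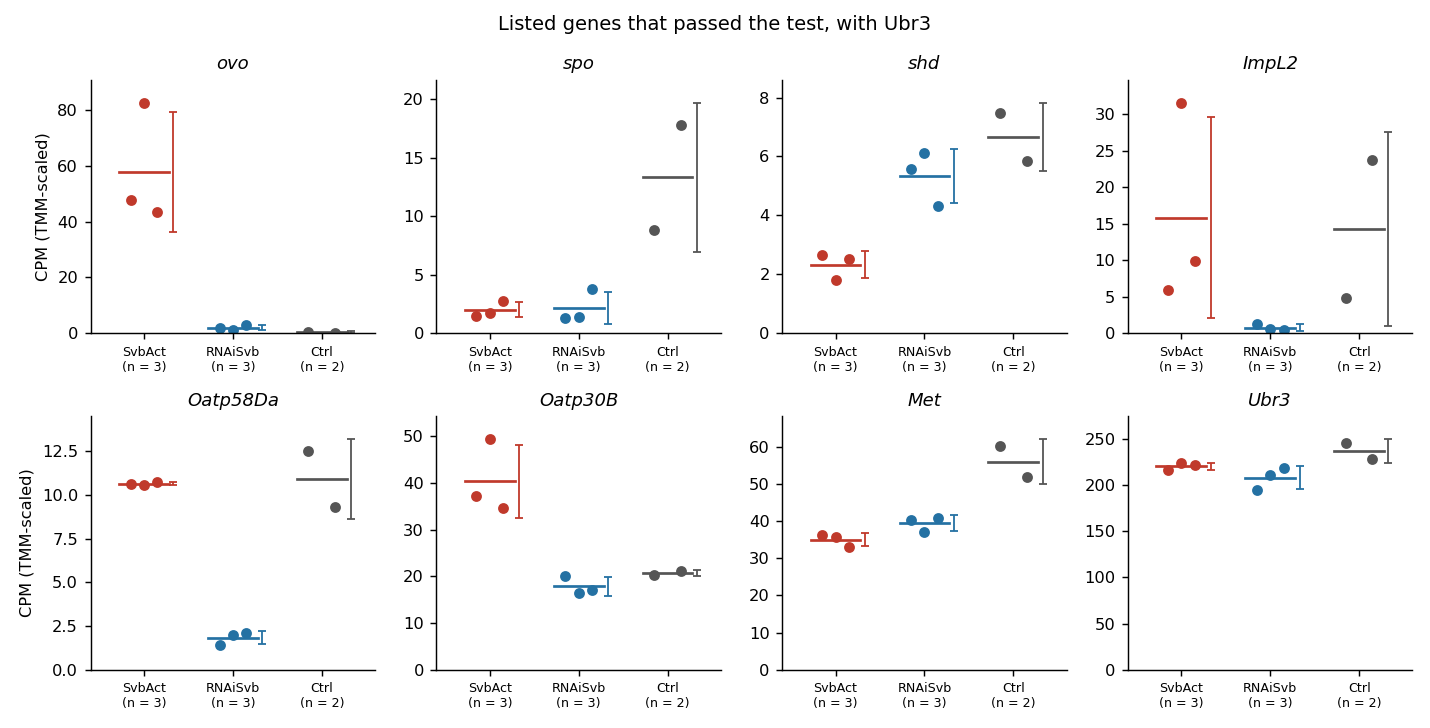
CPM by library of the 7 listed genes that passed a test, with Ubr3, for SvbAct (red, n = 3), the libraries labelled RNAiSvb (blue, n = 3) and Ctrl (grey, n = 2), with group means as lines and 1 SD as bars; axes start at 0. spo, shd and Met are lowest in SvbAct or in both transgene groups, ImpL2 and Oatp58Da are lowest in the libraries labelled RNAiSvb, and ovo and Oatp30B are highest in SvbAct.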

How the data were processed

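Total RNA was sequenced as single reads of 100 nt, per the labels. The authors deposited counts per gene in a table made with edgeR, per the file headers. The submitters' processing notes name FastQC 0.11.5, STAR 2.5.2b, HTSeq 0.6.0, edgeR and the build dm6, with no roles; strand setting and the authors' gene filter are not given in the sources used here. The table also holds other deposited columns (the authors' own fold changes and p-values), of which only the calls are cited.

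Counts were tested with edgeR 4.0.16 in R 4.3.3: TMM factors, filterByExpr by group (8775 of 9177 genes kept), one fit over 8 libraries with a mean per group, the quasi-likelihood test and Benjamini-Hochberg adjustment over all genes tested. SE is the log2 fold change over the root of the test statistic, and 95% intervals use the test's degrees of freedom. CPM uses TMM-scaled totals. The script was tested on simulated data. Within groups, no libraries were alike within sampling noise. Coordinates, lengths and overlaps are from the Ensembl annotation of BDGP6.54. Alternatives were other scalings and filters, DESeq2 1.42.0, the likelihood ratio test, only the groups compared, a block by replicate number, a threshold of 0.01 and the omission of each library.

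The genes, lists and tests were chosen with earlier results of these data known. All genes of the set are named, and of each list the genes past the threshold. Replicates are separate pools made on different days, so p-values measure the spread between pools. No sequences are printed, since none of those genes passed the test and no sequence tables were used here.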

Additional observations from a re-analysis of the deposited data

Results flagged for a closer look

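For br, all SvbAct libraries lay above both Ctrl libraries and all libraries labelled RNAiSvb below them, the second by 4.18 against 4.22 CPM between the nearest libraries. On library totals alone that second separation was not there (4.17 CPM in RNAiSvb replicate 1, against 4.07 and 3.97 CPM in Ctrl libraries). The direct comparison of SvbAct with RNAiSvb gave a log2 fold change of 0.84 (adjusted p = 0.0917 by edgeR's quasi-likelihood test), which did not pass.

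SvbAct libraries and those labelled RNAiSvb, each read against the same Ctrl libraries, differed by that direct test for 4 listed genes. Since ovo counts were near 0 in Ctrl libraries and could not show a lowering in those labelled RNAiSvb, these differences are between labelled groups. The log2 fold change in SvbAct against RNAiSvb was 4.40 for ImpL2, 4.89 for ovo, 1.18 for Oatp30B and 2.54 for Oatp58Da, with adjusted p values of 0.0118, 0.000329, 0.00640 and 0.000792. For ovo, the counts of SvbAct libraries can include the transgene. The ImpL2 difference did not pass without RNAiSvb replicate 2 (4.19).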

How the results depend on the processing

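No gene of the set was called under any alternative but DESeq2's Wald test, which called 1, br in SvbAct against RNAiSvb (0.86). Of all 8775 genes tested, DESeq2 called 1054 in that comparison, where the main test called 549. Of 432 log2 fold changes of these genes under alternatives, 36 changed sign, all uncalled and at most 0.41 in size. With library totals the signs that turned were ftz-f1 in SvbAct against Ctrl (0.0704) and, in RNAiSvb against Ctrl, Eip78C (0.0012), Eip93F (0.0751) and Hr39 (0.0798), where the median of all genes was 0.13 in place of 0.02. Eip74EF in SvbAct against RNAiSvb turned with DESeq2 size factors (0.00094), a minimum of 10 counts in every library (0.0013) and DESeq2 (0.00098).

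With the replicate block, Hr39 in SvbAct against Ctrl was -0.0021 and EcR in RNAiSvb against Ctrl -0.0131, and the calls of shd (-1.47, adjusted p = 0.116), Met (-0.67, 0.103) and Oatp30B (1.03, 0.0597) against Ctrl were lost in SvbAct. Same-numbered libraries of 7 pairs correlated between -0.06 and 0.14, 2 of them over 0.1, so the numbers are not shown to pair libraries.

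With single libraries left out, values ran, in SvbAct against Ctrl, -0.0458 to 0.18 for Eip74EF, -0.11 to 0.44 for Eip75B, -0.0452 to 0.10 for Hr39 and -0.11 to 0.0206 for ftz-f1. In RNAiSvb against Ctrl they ran -0.0925 to 0.23 for EcR, -0.0264 to 0.20 for Eip74EF, -0.19 to 0.35 for Eip75B, -0.50 to 0.41 for Eip78C, -0.16 to 0.15 for Eip93F and -0.10 to 0.0543 for Hr39. In SvbAct against RNAiSvb they ran -0.13 to 0.0829 for Eip74EF, -0.0480 to 0.29 for Eip75B, -0.0276 to 0.11 for Hr39 and -0.33 to 0.10 for Oatp74D.

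Calls among the other listed genes in SvbAct against Ctrl numbered 5, ovo among them, but 7 with DESeq2 and with the likelihood ratio test. They numbered 3 with library totals, 2 with the replicate block, 1 at a threshold of 0.01, and 1 to 5 with a library left out (1 without SvbAct replicate 1 or 2 or either Ctrl library, 3 without SvbAct replicate 3 or RNAiSvb replicate 1 or 3). In RNAiSvb against Ctrl they numbered 3, but 5 with DESeq2 and with the likelihood ratio test, both of which also called ovo (2.67 and 2.64), 1 at 0.01, and 1 to 3 with a library left out (1 without RNAiSvb replicate 1 or 2 or Ctrl replicate 2). In SvbAct against RNAiSvb they numbered 4, but 2 with the count minimum, which removes ovo and ImpL2 from the genes tested, 8 with DESeq2 and with the likelihood ratio test, and 3 to 4 with a library left out. spo in RNAiSvb against Ctrl was not called with library totals (-2.49).

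Over all genes, calls in SvbAct against Ctrl, RNAiSvb against Ctrl and SvbAct against RNAiSvb numbered 302, 119 and 549, with DESeq2 641, 351 and 1054, with the likelihood ratio test 610, 329 and 955, and at 0.01 89, 44 and 160. With a library left out they ran 48 to 368, 23 to 141 and 262 to 497, lowest without Ctrl replicate 1, Ctrl replicate 2 and SvbAct replicate 2. In SvbAct against Ctrl, 171 of 302 calls were higher, 223 of 319 with library totals, 14 of 48 without Ctrl replicate 1 and 32 of 68 without Ctrl replicate 2. In RNAiSvb against Ctrl, 23 of 119 calls were higher, 3 of 60 without Ctrl replicate 1 and 1 of 23 without Ctrl replicate 2. The cause of these changes was not tested. The search for genes most like a called gene was not run, as no gene of the set was called.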

Other observations

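Several listed genes lay near or under the detection range. Hr3, which encodes a nuclear receptor of the early-late ecdysone response, had 2, 6 and 9 counts in SvbAct libraries, 4, 0 and 4 counts in libraries labelled RNAiSvb and 2 and 0 counts in Ctrl libraries, and was not tested. Fbp1, a fat body gene of the same hormone's response, had 18, 36 and 37 counts in SvbAct libraries, 15, 24 and 0 counts in libraries labelled RNAiSvb and 0 and 1 counts in Ctrl libraries. Its adjusted p in SvbAct against Ctrl was 0.107 by edgeR's quasi-likelihood test, and DESeq2 and the likelihood ratio test called it. The authors' deposited table called Fbp1 upregulated in SvbAct against Ctrl. Fbp1 and Hr3 were chosen for mention after their values were seen.

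spok, the close relative of spo in hormone synthesis, averaged 3.26 CPM in SvbAct libraries, 2.61 CPM in libraries labelled RNAiSvb and 7.66 CPM in Ctrl libraries. It did not pass the test in SvbAct against Ctrl (log2 fold change -1.24, adjusted p = 0.133) or RNAiSvb against Ctrl (-1.55, adjusted p = 0.103), and was chosen for mention after its values were seen. The authors' deposited table called spok downregulated in RNAiSvb against Ctrl but not in SvbAct against Ctrl. spo and spok are paralogs, and reads that they share could be split or dropped by the counting. Blimp-1, a repressor that sets the timing of ftz-f1 in metamorphosis, averaged 262 CPM in SvbAct libraries, 336 CPM in libraries labelled RNAiSvb and 422 CPM in Ctrl libraries, with an adjusted p of 0.0768 in SvbAct against Ctrl.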
